A study of Mus musculus and Homo sapiens with 8 samples.

Results

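The genes described here are 10 transcription factors and cofactors of the erythroid and megakaryocytic lineages, GATA1, GATA2, TAL1, KLF1, ZFPM1, GFI1B, LMO2, NFE2, RUNX1 and FLI1, taken by symbol. All 10 are among the 20296 genes of the human tables, and all 10, written with only the first letter capital, are among the 17097 genes of the mouse tables. Every one passed the filter on low counts, in which 16529 human and 14598 mouse genes remained. RNA was sequenced from mouse LSK cells, the Lin- Sca-1+ c-Kit+ bone marrow population that contains the blood stem cells and multipotent progenitors, of C57BL/6 animals that were wild type (WT) or Anp32b-KO, with 2 libraries per genotype. It was also sequenced from KU812, an established human line from chronic myelogenous leukemia with basophil and erythroid features, which carried the hairpin shNC as control or shANP32B, with 2 libraries each. ANP32B is an acidic nuclear protein of the histone chaperone class, and the study's title sets it beside p53 in normal and leukemic stem cells. The labels give neither the animals' age, nor how the deletion was made, nor the number of hairpins. They do not say that replicates were separate animals or cultures, and a p-value then measures only the spread between these libraries.

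These factors work as a network. GATA1 and GATA2 bind GATA letters through paired zinc fingers, and as progenitors become red cells or megakaryocytes GATA1 takes over sites that GATA2 held. TAL1 binds E-boxes (CANNTG) with an E protein, and LMO2 and LDB1 bridge it to a GATA factor. ZFPM1, also called FOG-1, is a cofactor that binds GATA1 itself. GFI1B is a repressor that brings the demethylase KDM1A and its partner RCOR1 to DNA. KLF1 binds CACCC letters in the beta globin promoter and in many other red cell genes, NFE2 pairs with small MAF proteins and is needed for platelet release, RUNX1 binds DNA with CBFB, and FLI1 is an ETS factor of stem cells and megakaryocytes that opposes KLF1.

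Total counts ran from 10549358 to 15683480 for the LSK libraries, and the KU812 libraries were deeper, at 24416691 to 28209409. The targeted gene fell in KU812 cells, with ANP32B at 250.2 and 286 CPM in shNC and at 40.4 and 38.2 CPM in shANP32B (log2 fold change -2.77, adjusted p = 5.18e-08, edgeR quasi-likelihood test). In LSK cells Anp32b stood at 794 and 730 CPM in WT and at 201 and 249 CPM in KO (log2 fold change -1.76, adjusted p = 0.148). CPM are counts relative to the library total, which was scaled within an experiment by trimmed means of log ratios (TMM), and a gene is called where its adjusted p is under 0.05 over all genes of that experiment. The LSK label held for Kit, the receptor c-Kit, read at 335 to 399 CPM in the 4 libraries, for Flt3 at 441 to 492 CPM and for Ly6a, which encodes Sca-1, at 37.8 to 60.2 CPM. Genes of later lineages were read too. A list of neutrophil and monocyte markers summed to 2001 to 2830 CPM, beside 2244 to 2508 CPM for a list of stem and progenitor cell markers. Elane alone gave 651 to 1081 CPM of the former, while Ly6g was read at 0.419 to 2.36 CPM. Such sums do not give shares of cells. Of KU812's defining genes FCER1A, a chain of the high-affinity IgE receptor, was read at 594 to 788 CPM and BCR at 53.3 to 67.5 CPM, while the interleukin 3 receptor gene IL3RA was nearly silent, at 0.484 to 0.651 CPM in 3 of the 4 libraries and higher in the first shANP32B library.

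In KU812 cells with ANP32B knocked down, KLF1 was the only one of the 10 factors that passed the test, and it fell. The 10 factors otherwise divided into 6 whose values overlapped between the hairpins, namely GATA1, GATA2, TAL1, RUNX1, FLI1 and ZFPM1, and 3 with smaller shifts, GFI1B and NFE2 upward and LMO2 downward, that missed the threshold. Of all genes tested 16.6% were called, 7.53% higher and 9.06% lower, so 1 of 10 lies near that background. The median log2 fold change of the 10 was 0.016, against 0.0041 over all genes tested. With scaling by library totals alone the split of all calls was 1474 higher and 1182 lower, against 1244 and 1497 with TMM.

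KLF1, the red cell Krüppel-like factor, was read at 319 and 341 CPM in the shNC libraries and at 223 and 189 CPM in the shANP32B libraries. Both knockdown libraries lay below both controls, and the gap was wider than the spread within either pair. The mean fell by 37.6%, from 330.1 ± 15.9 to 206 ± 23.8 CPM (SD, n = 2 each), which is a log2 change of -0.68 (SE 0.11, 95% confidence interval -0.92 to -0.44) with an adjusted p of 0.00127 in edgeR's quasi-likelihood test. It stood at rank 405 by p among the genes tested. KLF1 was called under each of 10 alternatives of scaling, filter, test, block and left-out library, with log2 fold changes from -0.81 to -0.58 and adjusted p from 1.97e-10 to 0.013. The 3 genes whose 4 library values, centred on their mean on the log2 scale, lay nearest to those of KLF1 were LOC105369213 (root mean square distance 0.011), the nucleoside transporter gene SLC29A1 (0.015) and EML2-AS1 (0.019), a likeness over 4 libraries only.

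Neither GATA factor nor their cofactor passed the test. GATA1 stood at 197 and 206 CPM in shNC and at 219 and 188 CPM in shANP32B. The knockdown libraries lay on either side of the controls, with a log2 fold change of 0.016 and a 95% interval from -0.22 to 0.26. GATA2 stood at 1407 and 1176 CPM in shNC and at 1390.2 and 1221 CPM in shANP32B, where each hairpin had 1 higher and 1 lower library. Its log2 fold change was 0.015 with an interval from -0.21 to 0.24. ZFPM1, the GATA1 cofactor, stood at 68.6 and 76.8 CPM against 69.9 and 67.1 CPM, and its interval ran from -0.35 to 0.18. Each of these 3 intervals excludes a 1.5-fold change in either direction, but a smaller one was not excluded. GATA2-AS1, antisense to GATA2 and named after its values were seen, was read at 15.6 and 14.7 CPM in shNC and 11.9 and 16.1 CPM in shANP32B. The counting is not stated to use strand, so reads of the pair cannot be told apart.

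In the complex that joins TAL1 to GATA factors, neither TAL1 nor LMO2 passed the test, and only LMO2 had no overlap between the hairpins. TAL1 was read at 427 and 394 CPM in shNC and at 416 and 423 CPM in shANP32B, with both knockdown values between the controls (log2 fold change 0.032, 95% interval -0.18 to 0.24). LMO2, the bridging LIM protein, was read at 228 and 259 CPM in shNC and at 198 and 216 CPM in shANP32B. Its groups did not overlap, yet its log2 fold change of -0.23 (SE 0.11, interval -0.47 to 0.0032) missed the threshold (adjusted p = 0.169, edgeR). It was called in 1 of the 10 alternatives, without the first shNC library (adjusted p = 0.0168).

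GFI1B, the repressor, was read at 246 and 231 CPM in shNC and at 347 and 262 CPM in shANP32B. Both knockdown libraries lay above both controls, but they were far apart from each other. The means were 239 ± 10.8 and 305 ± 60.3 CPM (SD, n = 2 each) and the log2 change 0.35 (SE 0.13, adjusted p = 0.0774, edgeR). GFI1B was called in 4 of the 10 alternatives, without either shNC library, without the second shANP32B library and with the replicate number as a block, and its log2 fold change was 0.13 without the first shANP32B library (adjusted p = 0.728).

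NFE2, the larger subunit of the NF-E2 factor, was read at 330.2 and 338 CPM in shNC and at 395 and 363 CPM in shANP32B, a small upward shift without overlap (log2 fold change 0.18, SE 0.10, adjusted p = 0.244, edgeR). RUNX1 stood at 302 and 288 CPM against 296 and 298 CPM, with both knockdown values between the controls (95% interval of the log2 fold change -0.21 to 0.22). FLI1 stood at 203 and 181 CPM against 205 and 195 CPM, which overlapped (interval -0.18 to 0.29). Thus 2 of the 10 factors were higher and 2 lower without overlap between the hairpins, where 29.5% of all genes tested were higher and 28.9% lower in that way. RUNX1-IT1, a transcript from an intron of RUNX1 that was named after its values were seen, was read at 1.29 and 1.55 CPM in shNC and at 2.97 and 3.51 CPM in shANP32B (log2 fold change 1.19, adjusted p = 0.0542, edgeR). Reads of RUNX1 could enter it.

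**Figure D1:**
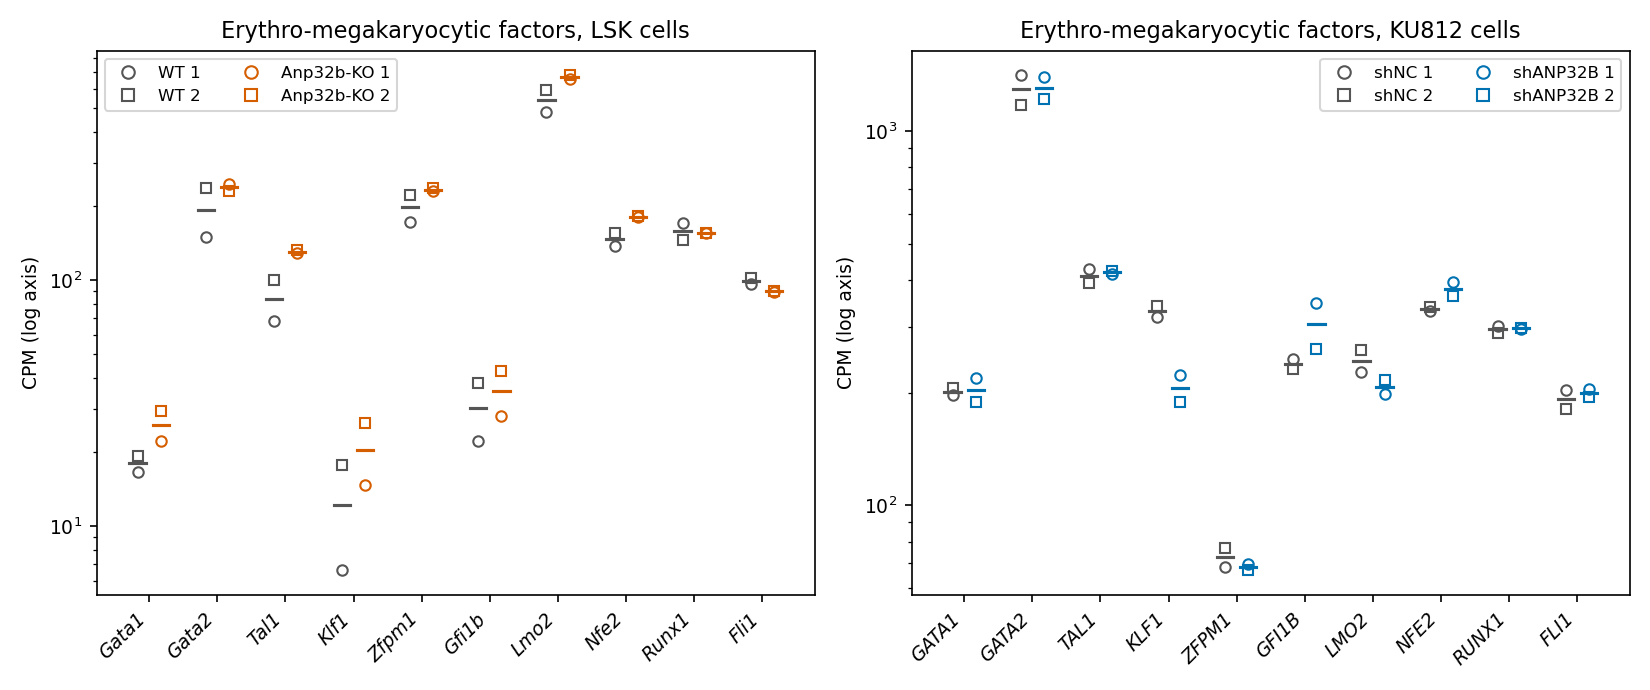
Levels of the 10 factors in each library, in CPM on a log axis (y) by gene (x), in LSK cells (left: WT grey, Anp32b-KO orange) and KU812 cells (right: shNC grey, shANP32B blue). Circles are replicate 1, squares replicate 2 and bars the mean of 2. In KU812 cells KLF1 at 223 and 189 CPM lies below its controls at 319 and 341 CPM. In LSK cells the first WT library is the lowest for 8 of 10 genes.

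Among the partners and cofactors, 3 of 23 genes rose and 3 fell, where 7.53% of all genes rose and 9.06% fell (median log2 fold change -0.070). LDB1, which holds TAL1, LMO2 and GATA1 together and loops enhancers to promoters, fell from 513 and 457 to 326 and 289.7 CPM (log2 fold change -0.66, adjusted p = 0.0012, edgeR), and kept its call without each library in turn. BACH1, a heme-sensitive repressor that competes with NFE2 for small MAF partners, had a log2 change of -0.69 and the deacetylase gene HDAC1 of -0.44, both past the test. Higher were SSBP2, which shields LDB1 from degradation, from 26.3 and 25.6 to 39.2 and 38.8 CPM (log2 fold change 0.59), the LIM-only gene LMO4 (0.63) and the corepressor gene CBFA2T3, known as ETO2 (0.31), the last 2 named after their values were seen. SSBP2 and HDAC1 lost their calls without either shANP32B library, with adjusted p up to 0.0874 and 0.132. LMO4 lost its call without the second shANP32B library (adjusted p = 0.122) and BACH1 without the first (0.0603). Of the 4 fits with 1 library left out, CBFA2T3 kept its call only in that lacking the second shNC library, with adjusted p up to 0.313 in the others. The partners lower numbered from 1 to 5, and those higher from 0 to 4, with 1 library left out.

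Of 24 related and opposing factors 1 rose and 3 fell (median log2 fold change -0.069), a share called that lies near the 16.6% of all genes. CEBPA, a driver of granulocyte fate, fell from 18.4 and 16.5 to 5.36 and 4.36 CPM (log2 fold change -1.84, adjusted p = 1.31e-04, edgeR). STAT5B, which carries cytokine and BCR-ABL signals, had a log2 change of -0.55, FOXO3, active in maturing red cells, of -0.52 and the ETS factor gene ETS1 of 0.69. FOXO3 lost its call without the first shANP32B library (adjusted p = 0.0589). The lower genes numbered from 2 to 7 with 1 library left out, most when it was the second shNC library and 5 when it was the first.

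The red cell genes that these factors serve moved mostly downward. Of 38 erythroid genes tested 19 fell and 1 rose, 50% lower against 9.06% of all genes, with a median log2 fold change of -0.40. The list was written with earlier results of these data known, so its direction is not independent evidence. HBB, the adult beta globin and a classical KLF1 target, fell from 72.7 and 80.3 to 31.8 and 33.3 CPM (log2 fold change -1.23, adjusted p = 4.27e-05, edgeR), and CA2, a carbonic anhydrase, from 247 and 226 to 99.8 and 93.2 CPM. CA1 had a log2 fold change of -0.87 and TFRC, the transferrin receptor, of -0.66. Membrane and heme genes were among those that fell, with log2 fold changes of -1.18 for the anion exchanger gene SLC4A1, -0.85 for EPB42, -0.64 for the heme synthesis gene ALAS2 and -0.66 for EPOR, the erythropoietin receptor, all 4 named after their values were seen. The 1 gene that rose was HBD, the delta globin, named after its values were seen. It went from 2.11 and 1.26 to 4.86 and 5.73 CPM. Globin genes are near-identical copies within the alpha and gamma pairs, so reads of HBA1, HBA2, HBG1 and HBG2 are uncertain. The number that fell was 15 to 23 with each library left out in turn. In bulk RNA, fewer cells of a type and less RNA per cell cannot be told apart.

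Of 21 megakaryocyte and platelet genes 6 rose and 2 fell (median log2 fold change 0.24), against 7.53% higher and 9.06% lower over all genes, so the lower share lies near its background. GP1BA, a chain of the von Willebrand receptor, rose from 26.7 and 22.9 to 66.4 and 58.0 CPM (log2 fold change 1.32, adjusted p = 5.65e-05, edgeR), PLEK, the platelet kinase substrate pleckstrin, by 0.96 and TBXAS1, thromboxane synthase, by 0.99. PPBP, a platelet chemokine gene, fell from 21.4 and 14.6 to 6.44 and 3.67 CPM (log2 fold change -1.83). Higher genes numbered 10 without the first shNC library, and lower genes 4 without the second. Of 17 mast cell, basophil and eosinophil genes, GATA2 among them, 5 rose and 4 fell (median 0.24), beside the same 7.53% and 9.06% of all genes. The mast cell tryptase gene TPSB2, whose reads are uncertain because TPSAB1 is a near-identical copy, rose with a log2 fold change of 1.26. The eosinophil granule genes EPX and PRG2 fell, with log2 fold changes of -4.48 and -1.48. CLC, the Charcot-Leyden crystal protein gene of eosinophils and basophils, fell by 2.69. The higher genes of that list numbered 8 without the second shNC library. Markers of other lineages stayed low, as 8 of the 12 genes on that list were present in the tables and summed to between 107 and 113 CPM in all 4 libraries.

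**Figure D2:**
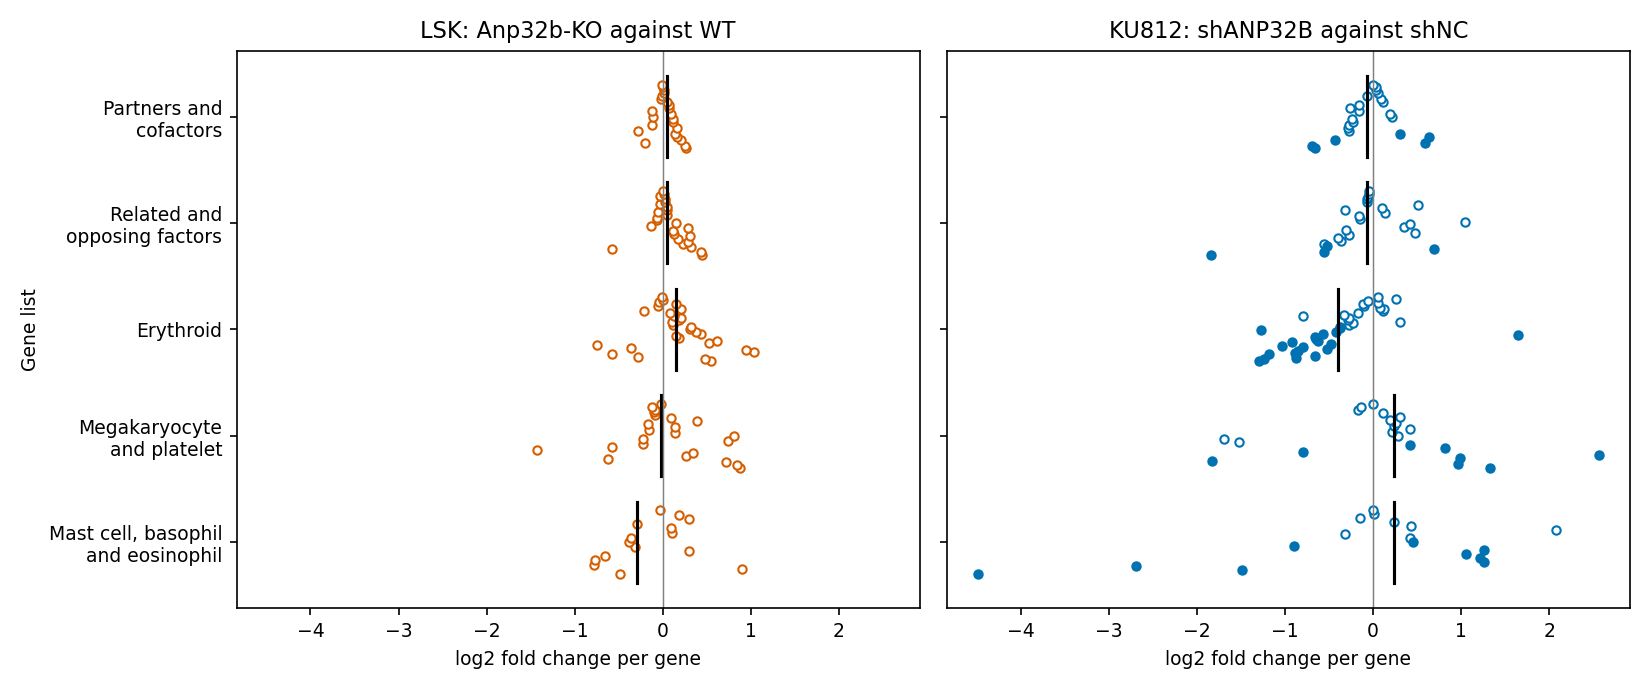
Log2 fold change of each gene (x) in 5 gene lists (rows) in LSK cells (left) and KU812 cells (right). Filled points passed an adjusted p under 0.05, black bars are list medians, and height within a row only orders genes by p. In KU812 cells 19 of 38 erythroid genes are filled below 0, while no point is filled in LSK cells.

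In LSK cells none of the 10 factors passed the test in the knockout, and 8 of 10 had a log2 fold change above 0, as did 48.6% of all genes tested. Their median was 0.30, against -0.0079 over all genes. Of 14 stem and progenitor cell markers 11 also had a log2 fold change above 0 and 5 were higher and 2 lower without overlap (median 0.10). Fgd5 stood at 0.60, Procr at 0.40, Hlf at 0.35 and Ly6a at -0.38, none past the test. That list summed to 2462 and 2244 CPM in WT and 2508 and 2400.5 CPM in KO, which overlapped, and its part in the factors' values was not tested. The largest values belonged to Klf1, Tal1 and Gata1. Not 1 gene of all those tested was called (0%), while 657 (4.5%) had an unadjusted p under 0.05, and DESeq2 called 15 and limma-voom 0. The targeted gene Anp32b was itself not called, at a log2 fold change of -1.76 (adjusted p = 0.148, edgeR). A missed call in LSK cells therefore does not show that a factor was unchanged. Of the 10 factors 2, Tal1 and Gata1, had an unadjusted p under 0.05, and DESeq2 and limma-voom called 0 of them. Both KO libraries lay above both WT libraries for 5 of the 10 (Gata1, Tal1, Zfpm1, Lmo2 and Nfe2; 17.7% of all genes) and below them for 1 (Fli1; 15.6% of all genes).

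Tal1 was read at 68.3 and 100 CPM in WT, from 1042 and 1048 counts, and at 128 and 132 CPM in KO, from 1577 and 1889 counts. The KO libraries were close to each other and above both WT libraries, by a gap smaller than that between the WT libraries. The log2 change was 0.63 (SE 0.19, adjusted p = 0.986, edgeR), rank 141 by p. Gata1 was read at 16.6 and 19.4 CPM in WT and at 22.1 and 29.4 CPM in KO, from 203 to 421 counts a library, without overlap (log2 fold change 0.52, SE 0.21). Klf1, from 101 to 374 counts, was read at 6.62 and 17.7 CPM in WT and at 14.7 and 26.1 CPM in KO. Its groups overlapped, and the log2 fold change of 0.77 came with an SE of 0.45 and a 95% interval from -0.29 to 1.82. The 3 genes nearest to Tal1 in their centred library values were Thap3 (root mean square distance 0.017), Tmem191c (0.030) and Obsl1 (0.030), over 4 libraries.

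Gata2, the stem and progenitor GATA factor, was read at 150.03 and 237 CPM in WT and at 246 and 231 CPM in KO. The first WT library was low and the other 3 were alike (log2 fold change 0.30, SE 0.22). Zfpm1 stood at 173 and 222 CPM in WT and at 229 and 237 CPM in KO (0.24, SE 0.16). Lmo2 stood at 484 and 592 CPM against 655 and 678 CPM (0.31, SE 0.17). For Zfpm1 and Lmo2 the KO libraries were higher without overlap, but for each the gap between the groups was smaller than that between its WT libraries. Nfe2 stood at 137 and 156 CPM in WT and at 181 and 182 CPM in KO, again without overlap (log2 fold change 0.31, SE 0.14). Gfi1b stood at 22.1 and 38.2 CPM against 28.0 and 42.8 CPM, overlapping widely (0.24, SE 0.29). Runx1 and Fli1 were the factors with a log2 fold change below 0, and neither passed the test. Runx1 stood at 171 and 146 CPM in WT and at 155 and 156 CPM in KO, with a log2 fold change of -0.026 that was 0.021 with scaling by library totals. Fli1 stood at 96.6 and 102 CPM in WT and at 89.6 and 90.5 CPM in KO (-0.14, SE 0.13, interval -0.43 to 0.16), without overlap.

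The first WT library gave the lowest value of the 4 for 8 of the 10 factors, where it was the lowest for 32.9% of all genes tested. The second KO library gave the highest value for 7 of the 10, against 22.2% of all genes. The first WT library also stood apart in B lineage RNA. Ighm, the immunoglobulin mu heavy chain gene, was read at 7669 CPM in it and at no more than 3323 CPM in the other libraries, and 10 of 11 B and plasma cell markers present in the tables summed to 7720 CPM against 1670 to 3363 CPM. The part of this library's makeup in the result was not tested. Without it 8 of 10 factors had a log2 fold change above 0 (51.5% of all genes). They were not the same 8, as Gfi1b turned to -0.11 and Runx1 to 0.089. Values were smaller than with all libraries for Tal1 (0.38), Gata1 (0.41), Klf1 (0.21), Nfe2 (0.21), Lmo2 (0.17), Zfpm1 (0.070) and Gata2 (0.0078), while Fli1 stood at -0.18. Without the second WT library, which leaves the first as the lone control, assumed to vary as the KO pair does, 4 of 10 factors were called (5.41% of all genes), Klf1 at 1.63, Tal1 at 0.93, Gata2 at 0.66 and Lmo2 at 0.46 (adjusted p from 0.00158 to 0.0416, edgeR). Without the second KO library Klf1 and Gata1 stood at 0.28 and 0.30 and Gfi1b again stood under 0, so that 7 of 10 were above it.

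**Figure D3:**
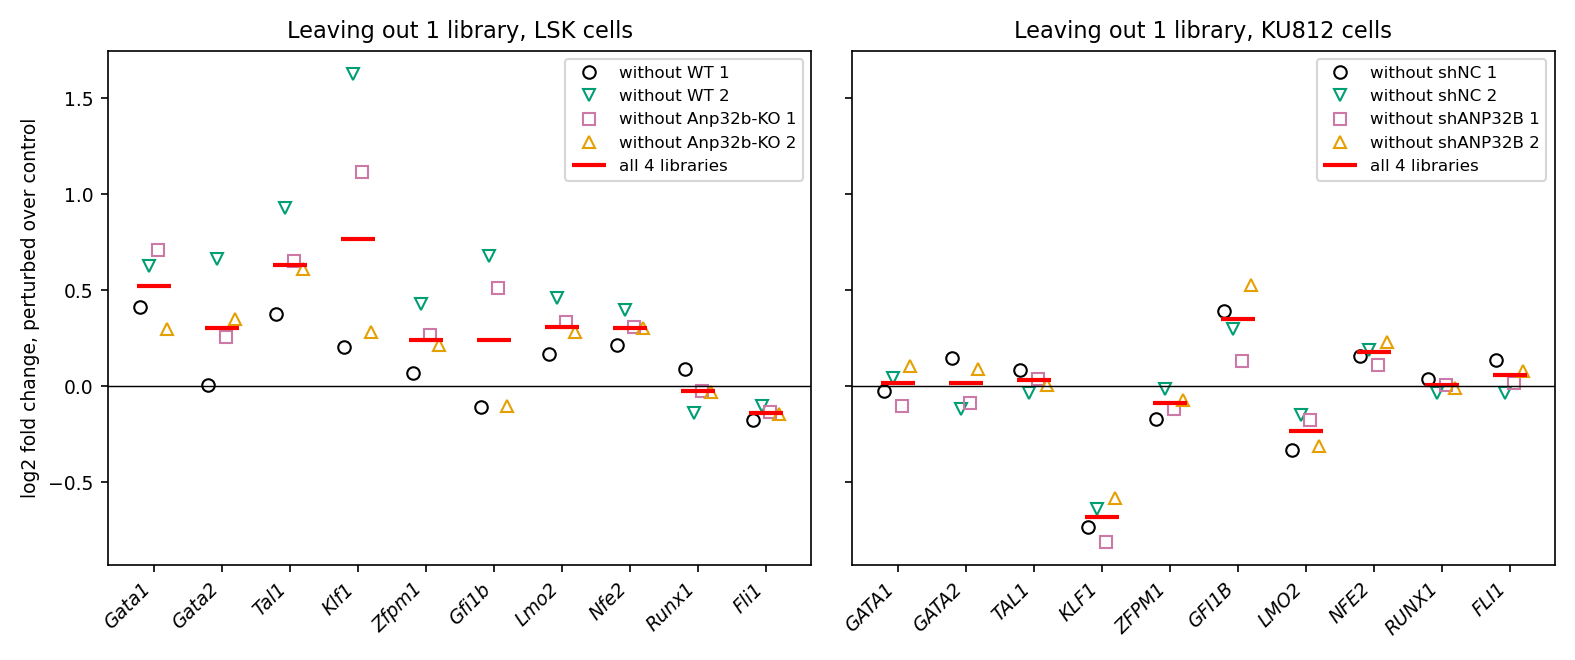
Log2 fold change of each factor (y), perturbed over control, with all 4 libraries (red bar) and with 1 library left out (symbols), in LSK cells (left) and KU812 cells (right). In LSK cells the values for Klf1 run from 0.21 without the first WT library to 1.63 without the second. In KU812 cells KLF1 stays between -0.81 and -0.58.

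Levels of different genes were set side by side only in LSK cells, per kilobase of the union of annotated exons (GENCODE, GRCm38). In WT the order was Lmo2 (248 ± 35.2 CPM per kilobase, SD, n = 2), Zfpm1 (56.3 ± 9.87), Nfe2 (49.0 ± 4.34), Gata2 (35.8 ± 11.3), Fli1 (28.4 ± 0.996), Tal1 (19.2 ± 5.12), Gfi1b (16.5 ± 6.21), Runx1 (13.2 ± 1.46), Klf1 (7.96 ± 5.14) and Gata1 (7.39 ± 0.789). Lmo2 stood clear of the rest. The neighbours Zfpm1 and Nfe2, Gata2 and Fli1, Tal1 and Gfi1b, Gfi1b and Runx1, and Klf1 and Gata1 overlapped between their libraries. In KO, Tal1 (29.7 ± 0.605) stood above Fli1 (25.8 ± 0.177), and Klf1 above Runx1 with overlap. Runx1 has the longest exon union, 12025 bases over 7 transcripts, and which of them the cells use is not known from these counts. In KU812 cells, for which no exon lengths were used, levels of different genes are not compared. The count ratios given next serve only to compare the hairpins.

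Ratios of counts within a library do not depend on scaling. They are not corrected for gene length, so only their changes between the groups of an experiment are read. The 4 pairs computed, GATA1 to GATA2, KLF1 to FLI1, TAL1 to LMO2 and GFI1B to GATA2, were chosen with results known. With 2 against 2 libraries no test is given, and no other pairs were computed to show how often such ratios separate. The GATA1 to GATA2 ratio was 0.140 and 0.175 in shNC and 0.157 and 0.154 in shANP32B, with the knockdown between the controls. In LSK cells it was 0.111 and 0.0819 in WT and 0.0899 and 0.127 in KO, overlapping. The KLF1 to FLI1 ratio was 1.57 and 1.89 in shNC and 1.09 and 0.971 in shANP32B, lower in both knockdown libraries. In LSK cells it was 0.0685 and 0.175 in WT and 0.164 and 0.289 in KO, overlapping. The TAL1 to LMO2 ratio was higher without overlap in both experiments, at 1.88 and 1.52 in shNC against 2.10 and 1.96 in shANP32B, and at 0.141 and 0.169 in WT against 0.196 and 0.195 in KO. The GFI1B to GATA2 ratio was 0.175 and 0.197 in shNC and 0.250 and 0.215 in shANP32B, higher without overlap. In LSK cells it was 0.147 and 0.161 in WT and 0.114 and 0.185 in KO, overlapping.

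**Figure D4:**
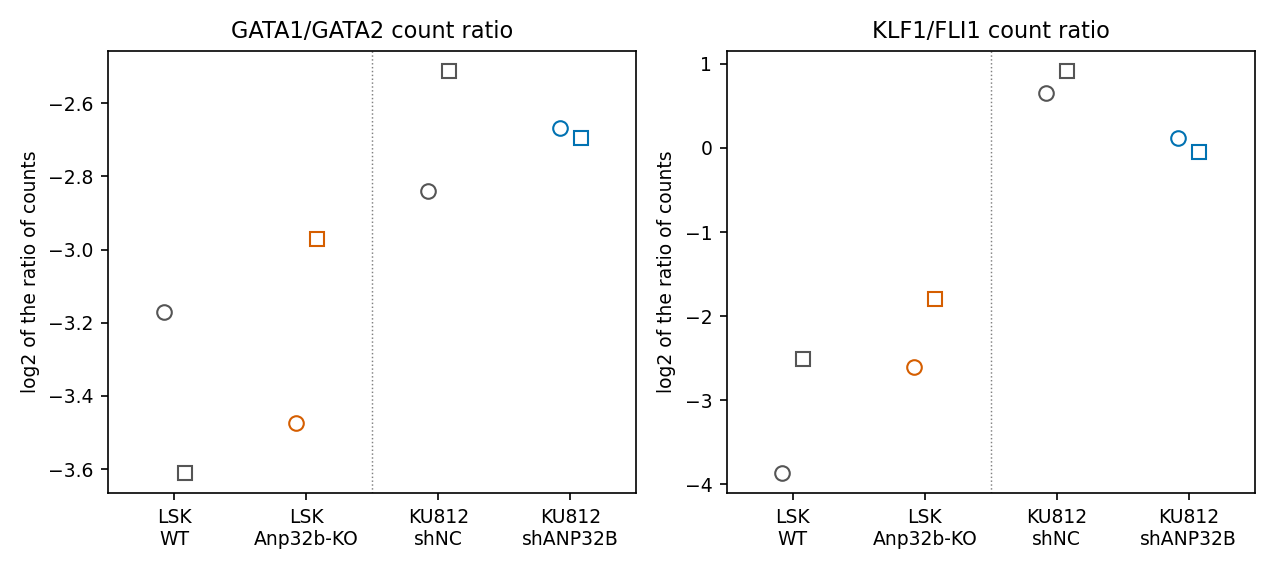
Log2 of the ratio of counts of GATA1 to GATA2 (left) and KLF1 to FLI1 (right) in each library (y) by group (x), circles for replicate 1 and squares for replicate 2. The KLF1 to FLI1 ratio is lower in both shANP32B libraries (1.09 and 0.971) than in both shNC libraries (1.57 and 1.89), and the other group pairs drawn overlap.

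The changes of the 10 factors were also compared between experiments, as an interaction in 1 edgeR fit over all 8 libraries and 10771 shared symbols. None of the 10 passed, while 2.22% of all symbols did. Before adjustment 4 of 10 (KLF1, LMO2, TAL1 and GATA1) had a p under 0.05, against 17.9% of all symbols. KLF1 had the largest difference, a log2 fold change 1.46 lower in KU812 than in LSK cells as fitted (interaction -1.46, SE 0.48, adjusted p = 0.138), followed by TAL1 (-0.58, adjusted p = 0.212) and LMO2 (-0.52, adjusted p = 0.19). The KLF1 interaction was called with the replicate block (adjusted p = 0.0089) and without the second WT library (0.00546), which also called TAL1 and LMO2. Species, cell type and the kind of perturbation cannot be told apart here.

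**Figure D5:**
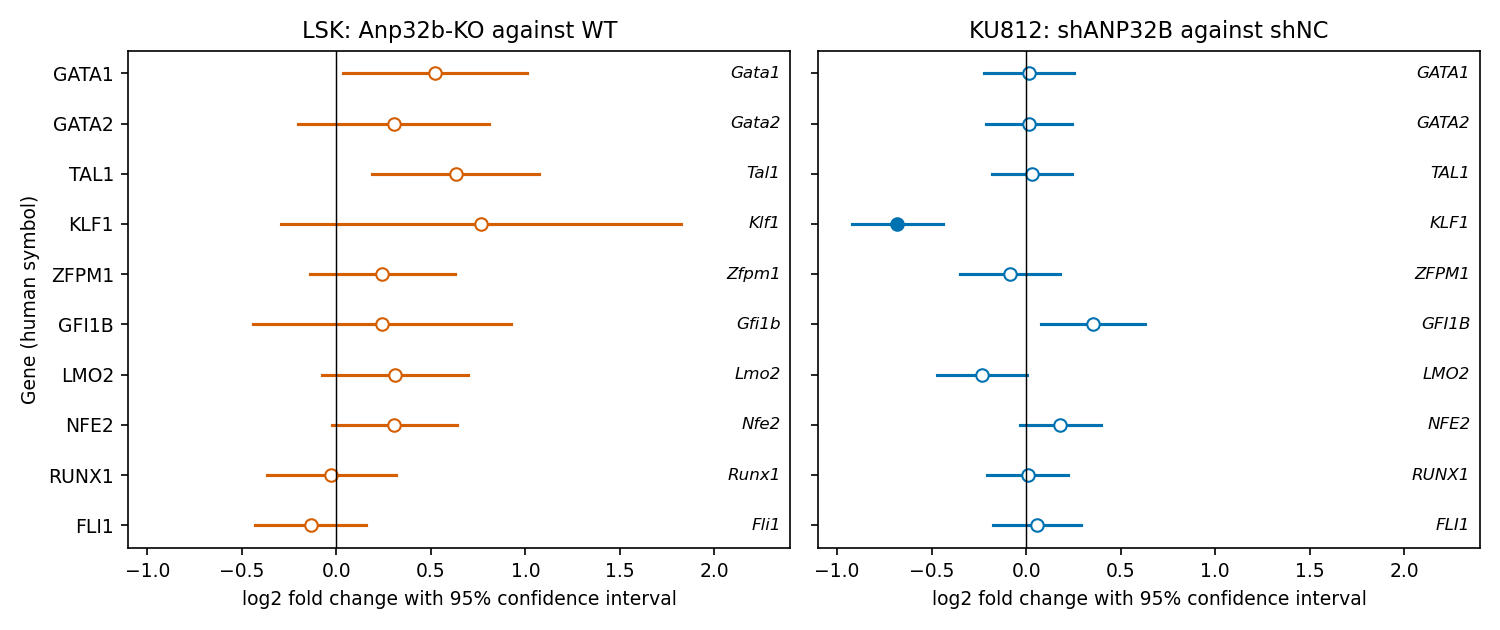
Log2 fold change (x) of each factor (y, human symbols; the symbol in the tables at the right) with its 95% confidence interval, in LSK cells (left) and KU812 cells (right). The filled point, KLF1 in KU812 cells at -0.68, is the only one that passed the test. Intervals are wider in LSK cells, up to -0.29 to 1.82 for Klf1.

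None of the 115 genes tested in LSK cells from the partner, related factor, erythroid, megakaryocyte and mast cell lists was called. DESeq2 and limma-voom also called 0 of them. Before adjustment 6 of the 115 had a p under 0.05 in edgeR's test, a share near the 4.5% of all genes tested. The median log2 fold change was 0.044 over 23 partners, 0.049 over 25 related factors, 0.15 over 29 erythroid genes, -0.018 over 23 megakaryocyte genes and -0.29 over 15 mast cell and basophil genes. Among partners Cbfa2t3 stood at 0.27, Tcf3, an E protein that pairs with Tal1, at 0.25, Ldb1 at 0.21 and Ssbp2 at -0.20. Klf3, a repressor and target of Klf1, stood at 0.44 and Cebpa at 0.44. Of the erythroid genes Cpox, a heme synthesis enzyme, stood at 0.55 and Hemgn at 0.48, while Tfrc stood at -0.28 and Hbb-bs, an adult beta globin gene, at -0.58. Defining genes of mature red cells were near 0 or low, with Alas2 at 0.244 to 1.40 CPM and Hbb-bs at 7.08 to 15.6 CPM, and the list summed to 1167 and 1435 CPM in WT and 1244 and 1545 CPM in KO. Platelet genes were also low in part, with Gp1ba at 3.34 and 3.72 CPM in WT and 7.08 and 5.94 CPM in KO (log2 fold change 0.88) and Pf4 at 25.5 to 31.7 CPM. Hdc, the histamine-forming enzyme, stood at -0.49. Neutrophil and monocyte markers summed to 2830 and 2541 CPM in WT and 2001 and 2299.5 CPM in KO. Of these 14 markers 12 had a log2 fold change below 0 (median -0.45), and none passed the test. Without overlap 10 were lower and 1 higher, against 15.6% and 17.7% of all genes tested. Stromal and endothelial markers summed to 245 and 198 against 167 and 163 CPM. T and NK cell markers summed to 182 and 121 against 129 and 158 CPM. Their part in the values of the factors was not tested.

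The mouse start regions show which of these genes carry the letters that the factors themselves bind. RefSeq windows of 300 bases (250 before to 50 after a start, GRCm38.p6) were found for 7 of the 10, in 10 windows. AGATAA or TGATAA was found in 3 windows, those of Klf1, Gfi1b and the first Tal1 start. Shown are the last pair, and the window of Gata1, which holds neither. Capitals mark AGATAA and likewise TGATAA and CANNTG, read on both strands, so that GATA letters on the other strand appear as TTATCT or TTATCA.
Tal1, first of 2 starts, chr4:115056176-115056475, plus strand: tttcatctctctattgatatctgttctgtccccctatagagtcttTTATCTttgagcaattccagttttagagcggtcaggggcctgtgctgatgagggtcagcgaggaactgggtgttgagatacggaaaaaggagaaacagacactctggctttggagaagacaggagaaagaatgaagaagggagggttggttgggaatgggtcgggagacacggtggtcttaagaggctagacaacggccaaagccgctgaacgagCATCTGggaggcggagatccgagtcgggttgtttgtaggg
Gfi1b, chr2:28621933-28622232, minus strand: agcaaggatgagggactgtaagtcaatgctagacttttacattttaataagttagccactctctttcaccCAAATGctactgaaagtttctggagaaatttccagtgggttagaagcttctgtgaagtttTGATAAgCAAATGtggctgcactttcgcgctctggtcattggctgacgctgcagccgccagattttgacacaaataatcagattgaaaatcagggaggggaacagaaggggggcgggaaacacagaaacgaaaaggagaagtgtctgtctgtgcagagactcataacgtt
Gata1, chrX:7967861-7968160, minus strand: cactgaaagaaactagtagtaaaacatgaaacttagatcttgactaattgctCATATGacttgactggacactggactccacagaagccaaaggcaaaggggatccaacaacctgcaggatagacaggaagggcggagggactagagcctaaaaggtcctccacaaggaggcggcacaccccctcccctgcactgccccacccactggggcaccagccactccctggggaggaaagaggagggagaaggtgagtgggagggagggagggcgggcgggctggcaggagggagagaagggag

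Counted from the annotated start as 0, the Klf1 window holds TGATAA on the other strand at position -80 and an E-box at -59, and the Gfi1b window holds TGATAA at -120 with an E-box at -113 and another at -180. In the first Tal1 window AGATAA lies on the other strand at -205, and an E-box lies at 10. Over the 10 windows AGATAA was found in 1 and TGATAA in 2, against 11.2% and 9.1% of all 32817 mouse windows of this length. CANNTG was in 6 of 10 (72.3% of all), CACCC in 7 of 10 (57.5%) and GGAA, the ETS core, in 10 of 10 (96.0%). Matches of different motifs were counted separately, also where their letters overlapped. These are letters in a window and not measured binding. No human windows were used here, so they bear on the mouse genes alone.

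The 10 mouse genes lie on different chromosomes for the most part (GENCODE, GRCm38, 1-based). Gata1 is at chromosome X, 7959260 to 7978071, Gata2 at chromosome 6, 88193891 to 88207032, Tal1 at chromosome 4, 115056426 to 115071755, and Klf1 at chromosome 8, 84901928 to 84905291. Zfpm1 shares chromosome 8, at 122282141 to 122337251, and Gfi1b and Lmo2 share chromosome 2, at 28609450 to 28621982 and 103957986 to 103981878. Nfe2 is at chromosome 15, 103248212 to 103258403, Runx1 at chromosome 16, 92601466 to 92826149, and Fli1 at chromosome 9, 32422204 to 32542861. Other annotated genes overlap Zfpm1, Lmo2, Runx1 and Fli1, and those are not among the counted genes, so whether their reads entered the members' counts is not known.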

How the data were processed

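For each library the authors deposited raw, whole-number read counts by gene symbol, per the file headers. The submitters' processing notes list DESeq, Cufflinks, TopHat and HISAT2, with GRCm38 and GRCh38 as builds. What counted the reads, whether strand was used and which annotation served is not given here. No gene sums to under 10 counts within its experiment. The LSK and KU812 counts were fitted separately in R 4.3.3 with edgeR 4.0.16 (filterByExpr, TMM, quasi-likelihood test, Benjamini-Hochberg over all genes tested, threshold 0.05, 2 libraries per group). An SE is the absolute log2 coefficient over the root of its F value. DESeq2 1.42.0, limma-voom (limma 3.58.1), other scalings, no filter, a replicate block and leaving out each library were alternatives. The likeness measure used log2(CPM + 0.5). Depth made 3 counts worth 0.106 to 0.284 CPM, which bounds counting error alone. The tests were tried on simulated counts. The 10 members and the gene lists were chosen with earlier results of these data known. All 10 members are named in each comparison; of every other list up to 4 genes with the smallest p are, and the text marks any further name as picked later, except genes that check a label or a cell type. The lists of markers served as checks of the labels. Mouse promoters are from RefSeq (GRCm38.p6). Some marker genes are not reported here.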

Additional observations from a re-analysis of the deposited data

How the results depend on the processing

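Counts of calls depended on single libraries. Among LSK genes 0 were called, against 15 with DESeq2, 15 with the replicate block and from 0 to 830 with 1 library left out (830 without the second WT library), and the LSK members called ranged from 0 to 4. Among KU812 genes the replicate block called 4164, and leaving out 1 library gave 1413 to 4047; members called were 2 with the block and 1 to 3 with a library left out. The interaction called 1 member (KLF1) with the replicate block and 0 to 3 with a library left out. Replicate numbers of the groups correlated at -0.075 in LSK and 0.15 in KU812 cells in their deviations from group means, and 2 pairs do not establish a pairing. The cause of these differences was not tested.

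The sign of 7 members' log2 fold changes and of 3 interactions turned under some setting. Runx1 was 0.021 with library totals only, and RUNX1 -1.12e-05 with no filter. With 1 library left out log2 fold changes ran from -0.11 to 0.68 for Gfi1b, -0.14 to 0.089 for Runx1, -0.10 to 0.11 for GATA1, -0.12 to 0.15 for GATA2, -0.036 to 0.088 for TAL1, -0.036 to 0.039 for RUNX1 and -0.035 to 0.14 for FLI1. The interaction ran from -0.64 to 0.032 for GATA2, -0.32 to 0.48 for GFI1B and -0.055 to 0.16 for RUNX1. The cause was not tested. Of 200 alternative values of members' log2 fold changes 178 kept their direction and side of the threshold. The erythroid genes lower in KU812 cells numbered 15 to 23. In LSK cells Klf1 had the widest standard error of the 10, 0.45, against 0.21 for Gata1 from similar counts, and its WT libraries were at 6.62 and 17.7 CPM.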
